A study of Mus musculus with 6 samples.

Results

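IGKV17-121 and IGKV19-93 are kappa light chain variable genes, and they were the only genes of the IGKV17 and IGKV19 families that received clonotypes in the 2 kappa libraries of the study. Each clonotype is 1 nucleotide sequence of the third complementarity-determining region (CDR3) together with its V and J assignment, and it was taken here when its best V assignment, without the allele number, lay in either family. This rule kept 2 of 102 IGKV genes, with 91 of 1818 clonotypes in the iB-μMT library and 99 of 1696 in the B6 library. The genes were chosen by their read and clonotype numbers in these libraries, so those levels are given below as a description, with no test.

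The iB-μMT library came from naïve follicular (FO) B cells sorted from the spleen of 1 μMT recipient (B6.129S2-Ighmtm1Cgn/J, a strain that makes no mature B cells of its own) at week 4 after transplantation. The adult recipient was sublethally irradiated, received induced hematopoietic progenitor cells (iHPCs), and drank water with doxycycline. The iHPCs were derived from iR9X2-ESCs, a modified mouse embryonic stem cell line of C57BL/6 background. This line carries GFP under the CAG promoter at Hipp11 and a doxycycline-inducible Runx1-p2a-Hoxa9-t2a-Lhx2 cassette at Rosa26. The B6 library came from the same kind of cells of 1 untreated C57BL/6 mouse, whose age was not given in the sources used here. GFP was not among the surface and lineage markers listed for the sort. With 1 library per group there is no replicate check anywhere below: a test over clonotypes compares these libraries or these genes within a library, not the conditions.

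A kappa light chain gene is built in a developing B cell by joining a single V segment to a single J segment, with no D segment between them. The RAG enzymes cut beside both segments, the opened ends may lose nucleotides or keep short palindromic (P) additions, and few untemplated nucleotides are added, because the enzyme that adds them is little active when kappa genes rearrange. The J genes lie in a row, IGKJ1 nearest to the V genes, and a cell whose first kappa chain fails or is self-reactive can join a further upstream V gene to a remaining downstream J gene, a process called receptor editing. IGKJ3 of the mouse is nonfunctional. The CDR3 spans the V-J joint and is the most variable loop of the light chain.

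In the mouse RefSeq annotation (GRCm38.p6, chromosome 6), Igkv17-121 spans chr6:68036818-68037318 and Igkv19-93 spans chr6:68736297-68736764. Both are functional V segments that lie upstream of the J cluster, 2.69 Mb and 1.99 Mb from Igkj1 (chr6:70722562-70722599). Family 19 has 1 annotated gene. Family 17 has 3, of which Igkv17-134 (chr6:67720729-67721225) is a pseudogene and Igkv17-127 (chr6:67861159-67861659) is annotated as a functional segment. Neither of these was the best assignment of any clonotype, and IGKV17-127 was listed as an additional assignment for 2 clonotypes, in the iB-μMT library.

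The V part of the CDR3 shows what each gene brings to the loop before any trimming. It is given from the clonotypes in which all 26 nucleotides of V were aligned without a mismatch, 5′ to 3′, with the codon at CDR3 position 7 in capitals.
IGKV17-121: tgtttgcaaagtgataacTTGcctct
IGKV19-93: tgtctacagtatgataatCTTctacc

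The largest clonotypes of each gene show how these ends were joined. They are the 5 with the most reads in either library, 6 per gene in all, with the nucleotides that align to J in capitals.
IGKV17-121 a: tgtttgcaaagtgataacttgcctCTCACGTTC
IGKV17-121 b: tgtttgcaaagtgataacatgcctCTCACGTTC
IGKV17-121 c: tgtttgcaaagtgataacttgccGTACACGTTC
IGKV17-121 d: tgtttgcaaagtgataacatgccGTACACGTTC
IGKV17-121 e: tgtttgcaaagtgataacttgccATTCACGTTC
IGKV17-121 f: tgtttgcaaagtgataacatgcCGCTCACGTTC
IGKV19-93 a: tgtctacagtatgataatctGTGGACGTTC
IGKV19-93 b: tgtctacagtatgataatcTGTACACGTTC
IGKV19-93 c: tgtctacagtatgataatcttcGGACGTTC
IGKV19-93 d: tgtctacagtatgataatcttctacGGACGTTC
IGKV19-93 e: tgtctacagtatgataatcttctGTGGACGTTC
IGKV19-93 f: tgtctacagtatgataatcttCTCACGTTC

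Of the IGKV17-121 joins, a, b and f use IGKJ5, c and d use IGKJ2, and e uses IGKJ4. Of the IGKV19-93 joins, a, c, d and e use IGKJ1, b uses IGKJ2, and f uses IGKJ5. None of the 12 carries an inserted nucleotide, and all were found in both mice.

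The libraries held 562884 reads in iB-μMT and 534314 in B6. The constant gene was IGKC for all 1805 and 1690 clonotypes with a constant gene hit, which left 13 and 6 clonotypes without one, none of them of IGKV17-121 or IGKV19-93. Reads carry no molecular identifiers, so intervals and limits below cover counting error only, and a read share mixes the number of cells with the RNA per cell, which cannot be told apart here.

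IGKV17-121 was among the leading kappa V genes of both mice. It had 47 clonotypes with 30897 reads in iB-μMT, which was 5.49% of the reads of the library, and 54 clonotypes with 44347 reads in B6, 8.30% of the reads. By reads it ranked 2 in iB-μMT, between IGKV6-15 (6.09%) and IGKV10-96 (5.01%). In B6 it ranked 1, with IGKV6-15 next at 44276 reads (8.29%). Its reads and ranks count every clonotype assigned to the gene, including the sequence variant described below, and whether all of these come from a single V gene was not tested. By clonotypes it ranked 1 in both libraries, with 2.59% of clonotypes (95% Wilson interval 1.95 to 3.42) in iB-μMT and 3.18% (2.45 to 4.13) in B6.

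IGKV19-93 had 44 clonotypes with 23734 reads in iB-μMT (4.22% of reads, rank 5) and 45 clonotypes with 14149 reads in B6 (2.65% of reads, rank 9). Its neighbours in the order of reads were IGKV6-17 (4.87%) and IGKV6-23 (3.68%) in iB-μMT, and IGKV1-117 (2.73%) and IGKV3-4 (2.63%) in B6. It made up 2.42% of clonotypes (1.81 to 3.23) in iB-μMT and 2.65% (1.99 to 3.53) in B6. The read share of IGKV17-121 was thus higher in B6 and that of IGKV19-93 higher in iB-μMT, while the intervals of their clonotype shares overlapped between the mice. Spread between mice was not measured, so neighbours in these orders cannot be said to differ.

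In each gene a few clonotypes held most reads. The 3 largest took 49.4% of the reads of IGKV17-121 in iB-μMT and 53.6% in B6, and 50.3% and 58.9% of those of IGKV19-93. The median clonotype of IGKV17-121 had 88.0 reads in iB-μMT and 39.5 in B6, and that of IGKV19-93 had 54.5 and 42.0. All clonotypes of both genes were productive, meaning in frame and without a stop codon. So were nearly all clonotypes of the whole libraries, 1802 of 1818 in iB-μMT and 1675 of 1696 in B6. The 0 of 47, 54, 44 and 45 non-productive clonotypes were counted without a test, and single-read clonotypes numbered 2 and 2 for IGKV17-121 and 2 and 4 for IGKV19-93, in iB-μMT and B6.

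The main feature of IGKV17-121 was a second series of joins that ran parallel to the first. In the sequences above, a and b, and likewise c and d, are the same except at nucleotide 19, counted from 1 at the 5′ end of the CDR3. The substitution T19A turns codon 7 from TTG, which encodes leucine, into ATG, which encodes methionine. The pair with most reads is repeated here with codon 7 in capitals.
T form: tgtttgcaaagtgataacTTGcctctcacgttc
A form: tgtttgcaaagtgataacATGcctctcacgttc

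The T form had 5760 reads in iB-μMT and 7502 in B6, and the A form had 5280 and 9433. In iB-μMT, 26 IGKV17-121 clonotypes carried T and 19 carried A, with 54.4% and 45.2% of the reads of the gene. In B6, 30 carried T and 15 carried A, with 47.7% and 51.9% of the reads. Among T and A clonotypes, A made up 42.2% (95% Wilson interval 29.0 to 56.7) in iB-μMT and 33.3% (21.4 to 47.9) in B6, so the intervals overlapped. The remaining clonotypes had V parts that ended before nucleotide 19 (2 and 3) or, in B6, C (5) or G (1) there.

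Both forms were found with each of IGKJ1, IGKJ2, IGKJ4 and IGKJ5. Pairs that were identical apart from T19A numbered 12 in iB-μMT and 9 in B6, and all 9 were among the 12. These pairs held 96.3% of the reads of the gene in iB-μMT and 96.6% in B6. Within a pair, the ratio of A reads to T reads had a median of 0.757 in iB-μMT, from 0.107 to 4.40, and of 1.17 in B6, from 0.250 to 5.56. The A form had more reads in 3 of 12 pairs in iB-μMT and in 5 of 9 in B6. Over all pairs the A form took 46.0% and 53.3% of the reads.

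The lowest and highest ratios in each library came from pairs with few reads. For the IGKJ2 join shown as c and d, the T and A forms had 4218 and 3147 reads in iB-μMT and 6824 and 5723 in B6. For the IGKJ4 join whose T form is shown as e, they had 2720 and 2090 reads in iB-μMT and 2789 and 3257 in B6. For the IGKJ5 join whose A form is shown as f, they had 2368 and 2392 reads in iB-μMT and 2202 and 3659 in B6, where the ratio was 1.66. The IGKJ1 pair was the smallest of these, with 260 and 237 reads in iB-μMT and 189 and 350 in B6. The lowest base quality in the CDR3 was 38 in every clonotype of a pair.

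**Figure D1:**
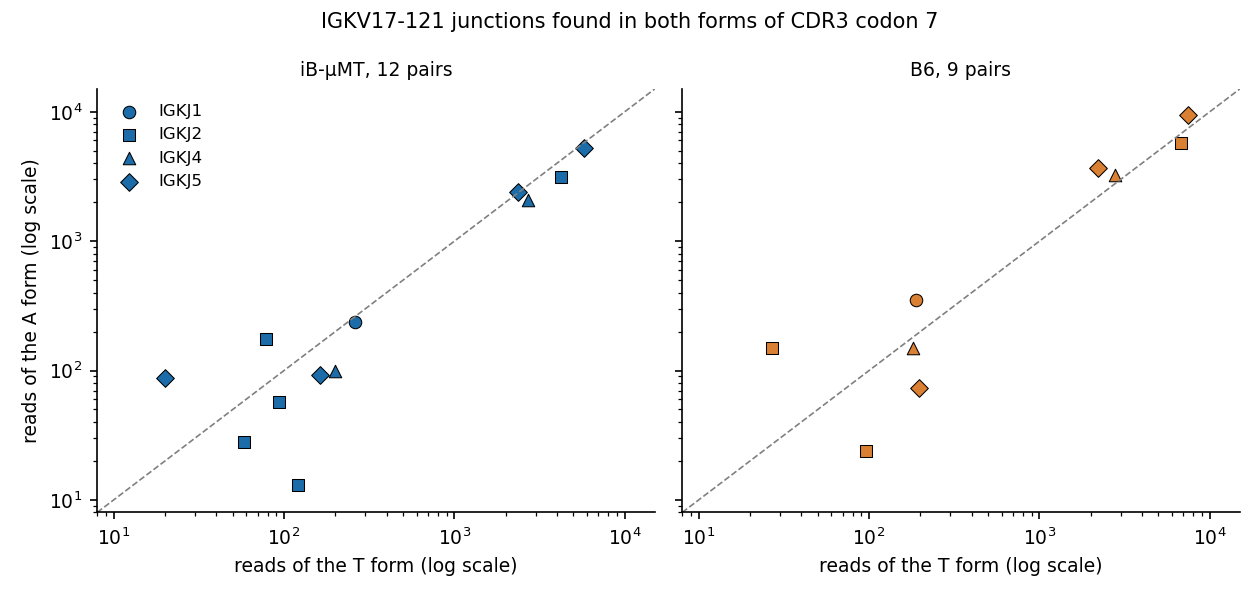
Reads of the A form against reads of the T form for each IGKV17-121 join found with both bases at CDR3 nucleotide 19, on log axes, 12 pairs in iB-μMT and 9 in B6. Marker shape gives the J gene and the dashed line equal reads. The pairs with few reads lie farthest from the line, on both sides of it, and of the large pairs an IGKJ5 join in B6 lies farthest above it (2202 and 3659 reads).

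Some substitution in V was carried by 44.7% of IGKV17-121 clonotypes in iB-μMT and 46.3% in B6, against 10.3% and 14.0% of the clonotypes of other IGKV genes. IGKV19-93 had 5 of 44 (11.4%) and 9 of 45, and its substituted clonotypes held 3.57% and 2.64% of its reads. For each V gene with at least 20 clonotypes, the substitution with most reads at least 7 nucleotides before the end of V was then taken. This comparison was chosen after the values were seen. The median read share of that substitution was 0.0404% over 42 genes in iB-μMT and 0.0713% over 39 genes in B6. It exceeded 10% in 2 genes of each library, IGKV17-121 with T19A (45.2% and 51.9%) and IGKV8-19 with T13C (38.7% and 37.3%). In the 26 nucleotides of IGKV17-121 the limit just takes in nucleotide 19, so the result depends on it. T24G of the same gene was left out, with clonotypes of 2392 and 2368 reads in iB-μMT and of 3659, 2202 and 9 in B6. The cause of T19A was not tested, and no germline V sequence was used here.

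The J genes joined to IGKV17-121 and IGKV19-93 differed most at IGKJ1. In iB-μMT, IGKV17-121 had 4 clonotypes with IGKJ1, 20 with IGKJ2, 10 with IGKJ4 and 13 with IGKJ5. In B6 it had 7, 21, 14 and 12. IGKV19-93 had 16, 11, 9 and 8 in iB-μMT and 20, 9, 5 and 11 in B6. Neither gene had a clonotype with IGKJ3, and a count of 0 allows a share of up to 6.38% and 5.56% of IGKV17-121 clonotypes and 6.82% and 6.67% of IGKV19-93 clonotypes. IGKJ3 was absent from the other IGKV genes as well, with 0 of 1727 clonotypes in iB-μMT and 0 of 1597 in B6.

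IGKJ1 was used by 8.51% of IGKV17-121 clonotypes in iB-μMT (95% Wilson interval 3.36 to 19.9) against 31.3% of all other clonotypes. This was the only one of the 8 J shares of the genes that passed the test in that library (two-sided Fisher exact test, Benjamini-Hochberg adjusted p = 0.0290 over 168 tests of 42 V genes). Of those 168 tests, 2 passed, or 1.19%. In B6 the share was 13% (6.42 to 24.4) against 31.5%, with an unadjusted p of 0.00261 and an adjusted p of 0.136, so it did not pass. These Fisher exact tests counted both forms of a T19A pair as separate clonotypes, with 12 such pairs in iB-μMT and 9 in B6. Low IGKJ1 shares were not particular to IGKV17-121. The lowest among the tested V genes belonged to others, 4.17% (1 of 24 clonotypes) in iB-μMT and 6.25% (2 of 32) in B6, and neither passed. None of the 8 tests of the genes passed in B6 by the Fisher exact test (2 had an unadjusted p under 0.05), and 0 of all 156 did (0%).

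By the same Fisher exact test, the iB-μMT call ended when near-identical clonotypes were merged (adjusted p = 0.147) and when clonotypes found in both mice were left out (adjusted p = 0.325). The difference itself was -22.8 percentage points as reported, -21.3 after merging and -20.5 without the clonotypes found in both mice. Over 7 alternatives its adjusted p ran from 0.0285 to 0.325 by that exact test. For IGKV19-93, the IGKJ1 share was 36.4% (23.8 to 51.1) in iB-μMT and 44.4% (30.9 to 58.8) in B6. The adjusted p for its difference from the other genes was 1.0 and 0.719 by the same Fisher exact test.

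By reads the contrast at IGKJ1 was wider. IGKJ1 took 1.88% of IGKV17-121 reads in iB-μMT and 1.43% in B6, and 50.7% and 51.6% of IGKV19-93 reads. The other IGKV genes had 32.3% and 30.4%. Among V genes with at least 20 clonotypes, the IGKJ1 read share of IGKV17-121 was the second lowest of 42 in iB-μMT and of 39 in B6. IGKJ5, the J gene farthest from the V genes, took 52.9% and 52.5% of IGKV17-121 reads, which ranked 4 from the top in both libraries, and 14.0% and 13.5% of IGKV19-93 reads. IGKJ2 was alike in both genes, with 27.8% and 31.1% of IGKV17-121 reads and 28.6% and 29.2% of IGKV19-93 reads. IGKJ4 took 17.4% and 15% of the former and 6.76% and 5.6% of the latter. Read shares rest on a few large clonotypes and were not tested.

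**Figure D2:**
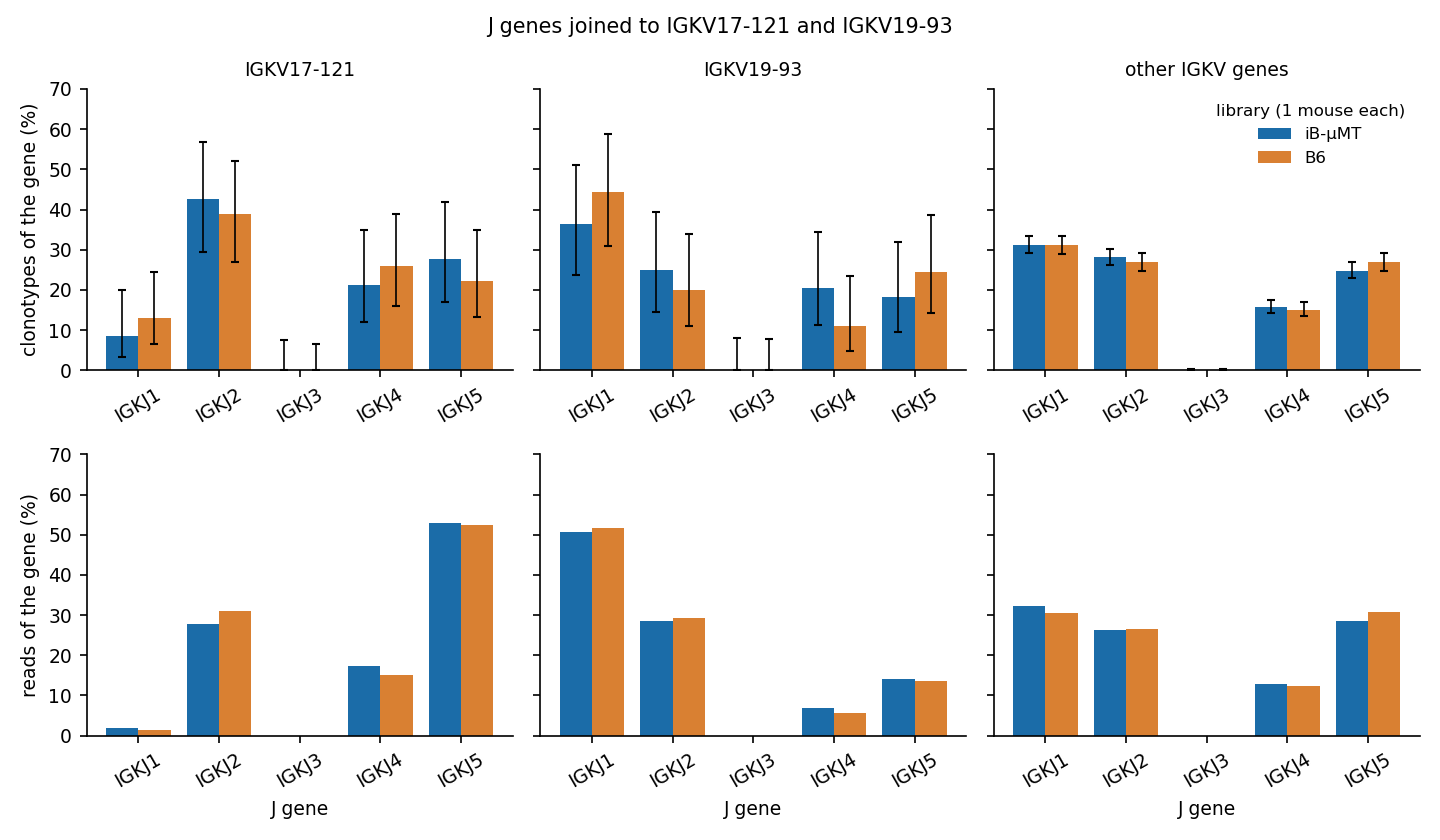
Share of each J gene among the clonotypes (top, bars with 95% Wilson intervals) and the reads (bottom, no error shown) of IGKV17-121, IGKV19-93 and all other IGKV genes, in percent, in the 2 libraries. IGKJ1 is the smallest used J share of IGKV17-121 and the largest of IGKV19-93 in every panel, and the bars of the 2 mice lie close together by reads.

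Between the mice, no J share of either gene passed the test. The 8 Fisher exact tests gave adjusted p-values of 1.0, 0 of them had an unadjusted p under 0.05, and 0 of 148 tests over all V genes passed (0%). The largest difference was in the IGKJ4 share of IGKV19-93, which was 20.5% (11.2 to 34.5) in iB-μMT and 11.1% (4.84 to 23.5) in B6. With 44 to 54 clonotypes per gene, differences of this size were not detectable.

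The J profile of each gene was set against that of other V genes, as the Euclidean distance in percentage points over 8 values, the clonotype shares of 4 J genes in 2 libraries, among the 36 other genes that had 20 or more clonotypes in both. The genes most like IGKV17-121 were IGKV6-15 (18.2), IGKV6-13 (21.1) and IGKV4-57 (21.8), with a median distance of 41.9. The genes most like IGKV19-93 were IGKV12-44 (5.47), IGKV6-17 (10.8) and IGKV8-30 (14.6), with a median of 26.5. IGKV17-121 and IGKV19-93 lay 52.4 apart.

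The 2 genes also differed in CDR3 length. Counted with the conserved cysteine and phenylalanine that frame the loop, CDR3s of 11 amino acids held most reads of the other IGKV genes, 87.8% in iB-μMT and 91.3% in B6. In IGKV17-121, 93.1% of reads in iB-μMT and 96.2% in B6 had this length. In IGKV19-93, 34.3% and 24.7% did, and 64.6% and 74.3% of reads had 10 amino acids. The other IGKV genes had 7.66% and 5.57% of reads at 10 amino acids, and the read share of IGKV19-93 at this length ranked 3 among 42 genes in iB-μMT and 2 among 39 in B6. These shares were not tested.

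By clonotypes the shorter loop of IGKV19-93 was less marked. It had 10 amino acids in 14 of 44 clonotypes (31.8%) in iB-μMT and 18 of 45 (40.0%) in B6, against 21.7% of the clonotypes of the other genes in each library. This clonotype share ranked 15 among 42 genes in iB-μMT, where the median over genes was 26.0%. In B6 it ranked 3 among 39, with a median of 24.1%. The length of 11 amino acids was found in 21 of 44 (47.7%) and 22 of 45 (48.9%) of IGKV19-93 clonotypes. Lengths ran from 9 to 13 amino acids in iB-μMT and from 9 to 12 in B6 for IGKV19-93, and from 9 to 13 in both for IGKV17-121.

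In iB-μMT, 12 of 47 IGKV17-121 clonotypes (25.5%) had 11 amino acids against 47.8% of all other clonotypes (Fisher exact test, adjusted p = 0.0388), and 3 of 42 V genes passed this test, or 7.14%. The other IGKV17-121 clonotypes had 9 (5), 10 (12), 12 (16) or 13 (2) amino acids and few reads. Weighted by reads the difference turned, to 7.70 percentage points above the others. By the same Fisher exact test, the call ended on dropping single-read clonotypes (adjusted p = 0.0536), on merging near-identical ones (0.0960) and on leaving out those found in both mice (0.0563), within a range of 0.0375 to 0.0960 over 7 alternatives. The difference was -22.2 percentage points as reported and -21.6, -21.4 and -27.0 under these. In B6, 25 of 54 IGKV17-121 clonotypes (46.3%) had 11 amino acids, neither gene passed the Fisher exact test (0 of 2 also at an unadjusted p under 0.05), and 1 of 39 V genes did, or 2.56%.

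**Figure D3:**
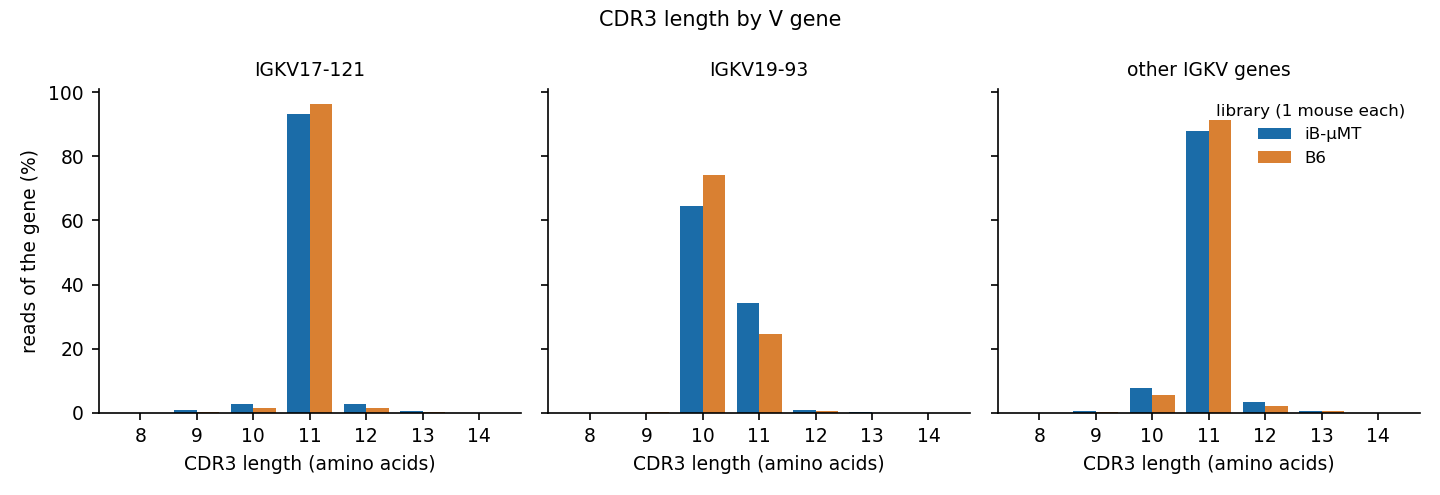
Share of reads by CDR3 length, in percent, from 8 to 14 amino acids, for IGKV17-121, IGKV19-93 and all other IGKV genes in the 2 libraries, with no error shown. IGKV17-121 and the other genes peak at 11 amino acids, and IGKV19-93 peaks at 10 in both mice.

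The trimming of the V end differed between the 2 genes by reads, and its relation to CDR3 length over all joins was not tested. In IGKV19-93, joins that had lost 6 nucleotides of V held 44.3% of reads in iB-μMT and 54.9% in B6, the highest value among 42 and 39 V genes. In the other genes such joins held 0.602% and 0.385%. The largest IGKV19-93 clonotypes, a and b above, are both of this kind, and each keeps the whole J end and has a CDR3 of 10 amino acids. Clonotype a had 5250 reads in iB-μMT and 3884 in B6, and b had 4433 and 3304. Clonotype c lost 4 nucleotides of V and 2 of J (2246 and 1139 reads). By number, 6 of 44 and 10 of 45 IGKV19-93 clonotypes had lost 6 nucleotides of V.

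As aligned, IGKV17-121 kept its V end more often by reads than the other genes. In its reads, 53.6% in iB-μMT and 53.8% in B6 kept the whole V end, and 42.6% and 44.1% had lost 3 nucleotides, as in c, d and e. In a and b, V was aligned to its end but overlaps J by 2 nucleotides. They held 5760 and 5280 of the 16560 whole-end reads in iB-μMT, and 7502 and 9433 of 23858 in B6. In f and its T form, V was aligned to its end with the mismatch T24G and overlaps J by 4 nucleotides. The loss could thus also be read as larger in all of these joins. In the other genes 24.2% and 25.3% of reads kept the whole V end. By clonotypes this did not hold in both mice: 16 of 47 IGKV17-121 clonotypes in iB-μMT and 14 of 54 in B6 (25.9%) kept the whole V end, against 28.7% and 28.9% in the other genes. These shares were not tested.

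**Figure D4:**
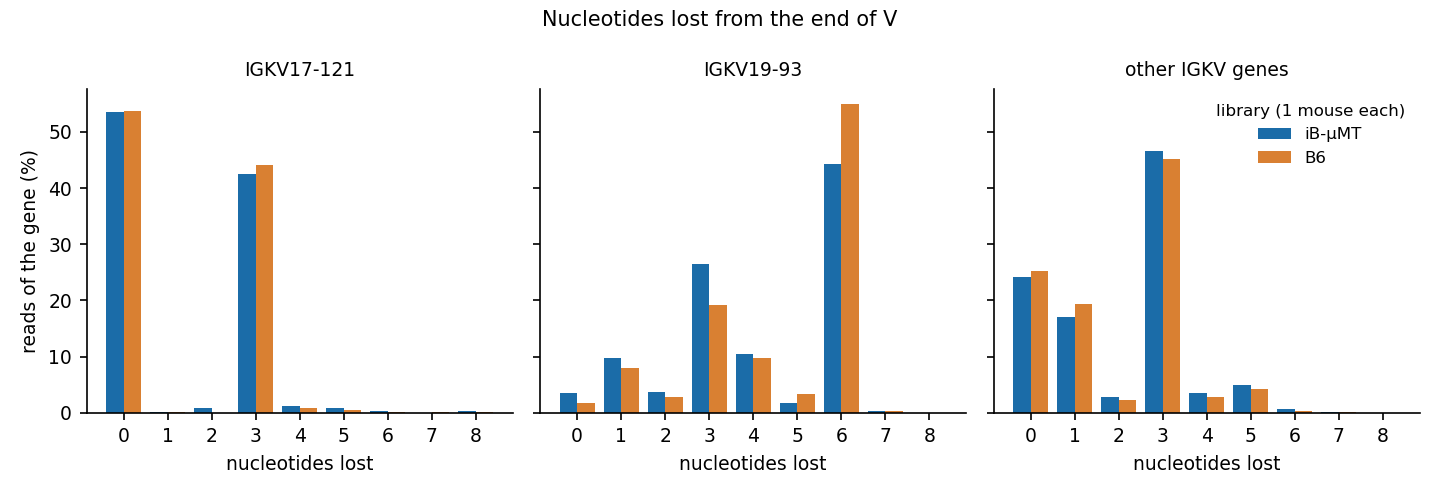
Share of reads by the number of nucleotides lost from the end of V, in percent, from 0 to 8, for IGKV17-121, IGKV19-93 and all other IGKV genes in the 2 libraries, with no error shown. As aligned, IGKV17-121 has peaks at 0 and 3 nucleotides, and IGKV19-93 has its highest at 6 in both mice.

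Most joins held no nucleotide outside V and J. No inserted nucleotide was found in 36 of 47 IGKV17-121 clonotypes in iB-μMT (76.6%, 95% Wilson interval 62.8 to 86.4) and 39 of 54 in B6 (72.2%, 59.1 to 82.4). For IGKV19-93 it was 34 of 44 (77.3%, 63.0 to 87.2) and 37 of 45 (82.2%, 68.7 to 90.7). The other genes had 81.9% and 80.7%. By reads, joins without an insertion made up 98.3% to 99.0% of either gene in either library, and 95.2% and 94.7% of the other genes. Neither gene passed the Fisher exact test in either library (0 of 2 in each, also at an unadjusted p under 0.05), where 9.52% of V genes passed in iB-μMT and 5.13% in B6.

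In some clonotypes V and J could be aligned over shared nucleotides, so that the joint cannot be placed exactly. These were 20 of 47 and 25 of 54 IGKV17-121 clonotypes (42.6% and 46.3%) in iB-μMT and B6. In IGKV19-93 they were 13 of 44 and 14 of 45 (29.5% and 31.1%), and in the other IGKV genes 34.2% and 36.3%. P nucleotides of J are short palindromic copies of its own end. J was aligned past its end, and these bases were counted as P nucleotides, in 22 of 47 and 23 of 54 IGKV17-121 clonotypes (46.8% and 42.6%). Where V and J overlap, the same bases can also be V bases. The alignment also allowed mismatches, so the counts are not counts of certain P additions. In IGKV19-93 they were found in 17 of 44 and 13 of 45 (38.6% and 28.9%), and in the other genes in 33.2% and 30.6%. These shares were not tested.

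Different nucleotide joins could encode the same loop. The 47 and 54 IGKV17-121 clonotypes encoded 42 and 48 amino acid sequences, and the 44 and 45 IGKV19-93 clonotypes encoded 35 and 36. Loops encoded by several clonotypes held 65.8% and 52.4% of IGKV17-121 reads and 44.3% and 49.7% of IGKV19-93 reads. Up to 4 IGKV19-93 clonotypes shared a loop in each library.

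The same joins recurred in both mice. Of the IGKV17-121 clonotypes, 26 were found in both libraries with identical CDR3 nucleotides, V and J, which was 55.3% of those in iB-μMT (95% Wilson interval 41.2 to 68.6) and 48.1% of those in B6 (35.4 to 61.1). They held 96.8% and 97.8% of the reads of the gene. Of the IGKV19-93 clonotypes, 25 were found in both, 56.8% (42.2 to 70.3) and 55.6% (41.2 to 69.1), with 97.4% and 95.4% of reads. Over the whole libraries, 49.2% and 52.7% of clonotypes were found in both, and they held 91.7% and 93.5% of all reads. Neither gene passed the Fisher exact test against the other clonotypes (0 of 2 in each library, also at an unadjusted p under 0.05), where 0 of 42 V genes passed in iB-μMT (0%) and 1 of 39 in B6 (2.56%).

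The clonotypes found in both mice were the large ones. For each gene, 4 of the 5 largest and 9 of the 10 largest were the same in both libraries. Clonotypes found in both had a median of 144 and 164 reads in IGKV17-121, and those found in a single mouse 34.0 and 24.0. In IGKV19-93 the medians were 304 and 138 against 22 and 14. The largest clonotype found in a single mouse had 188 reads in iB-μMT and 296 in B6 for IGKV17-121, and 204 and 299 for IGKV19-93.

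Clonotype by clonotype, the read share of IGKV19-93 joins was higher in iB-μMT in 22 of 25 found in both mice, with a median log2 ratio of iB-μMT over B6 of 0.88, from -1.54 to 2.59. For IGKV17-121, 18 of 26 had the higher read share in B6, with a median log2 ratio of -0.36, from -3.60 to 2.80. The read shares of the whole genes lay the same way in iB-μMT and B6, 4.22% and 2.65% for IGKV19-93 and 5.49% and 8.30% for IGKV17-121. The counts are thus not separate from those levels, and no such count is given for other V genes. The large IGKV19-93 joins all lay on the iB-μMT side, while single small joins of both genes lay far to either side. With 1 mouse per group these ratios have no error and were not tested.

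**Figure D5:**
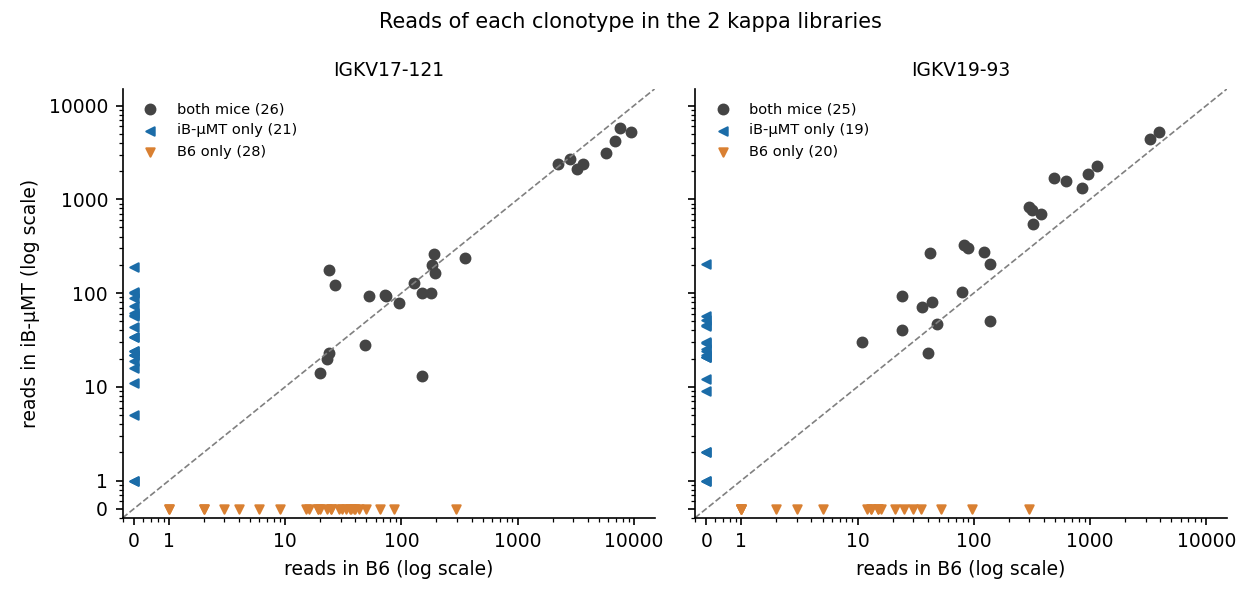
Reads of each IGKV17-121 and IGKV19-93 clonotype in iB-μMT against B6, on log axes, with clonotypes found in a single mouse set at 0. The dashed line marks equal reads. The joins with most reads are found in both mice, and most IGKV19-93 joins found in both lie above the line.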

How the data were processed

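Clonotype tables of the 2 kappa libraries (1 per group) were analysed, and the heavy and lambda libraries were not used here. Per the study's methods, the authors extracted RNA from sorted naïve FO B cells, made 5′ RACE libraries, sequenced these (Illumina MiSeq) and ran MiXCR to assemble clonotypes. The submitters' processing notes list bcl2fastq and mm10. The deposited tables give a read count per clonotype, the fraction of all reads that it makes up (used only to check the counts), and a score for the lowest base quality of the CDR3. Assembly merges close sequences, so substitutions and small clonotypes depend on it.

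V and J were the best hits without allele numbers. Nucleotides lost, inserted or palindromic were read from the deposited reference points, and substitutions from the V alignment. Each clonotype counted once, so both forms of a T19A pair entered every test and interval as separate clonotypes. V genes with at least 20 clonotypes were compared with all other clonotypes of the library (2-sided Fisher exact tests, Benjamini-Hochberg adjustment over all tests of a family, threshold 0.05) in SciPy 1.17.1, pandas 2.3.3 and NumPy 2.4.6 under Python 3.11.15. Scripts were tested on simulated data. Depth was 562884 and 534314 reads; 3 reads, the limit a count of 0 allows, were 0.000533% and 0.000561% of a library. All 102 V gene names matched RefSeq symbols.

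Alternatives were minimums of 2 and 5 reads, merging of clonotypes 1 mismatch apart with at least 10 times the reads, productive clonotypes, unique best V hits, equal read numbers, leaving out clonotypes found in both mice, and weighting by reads. Named were the genes, their J genes, their 5 largest clonotypes per library, the 3 genes of most alike J profile and neighbours by reads. The genes, lists and tests were chosen with earlier results of these data known. The alternatives for the 10 amino acid CDR3 and for T19A were chosen after seeing the data.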

Additional observations from a re-analysis of the deposited data

How the results depend on the processing

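No paired analysis was possible because each group had 1 library and the labels give no replicate numbers, and no replicate could be left out. The IGKJ1 call of IGKV17-121 in iB-μMT (1 of 8 tests) fell to 0 when near-identical clonotypes were merged. The length call of IGKV17-121 in iB-μMT (1 of 2) fell to 0 when merged and when single-read clonotypes were dropped. Without clonotypes found in both mice, IGKV19-93 fell under 20 clonotypes in iB-μMT and was not tested there, and both IGKV17-121 calls were lost, with 21 of its clonotypes left. The differences kept their direction and a size of 20.5 percentage points or more below the others wherever these calls were lost.

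Merging turned 2 differences that had not passed, in joins without insertion of IGKV19-93 in iB-μMT (5.06 percentage points) and in its IGKJ1 share between the mice (2.57). Leaving out clonotypes found in both mice turned the 11 amino acid share of IGKV17-121 in B6 (11 percentage points). Weighting by reads turned that share in iB-μMT (7.70). Weighting by reads moved the library share of IGKV17-121 to 5.49% and 8.30%, and that of IGKV19-93 in iB-μMT to 4.22%.

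The share of the 3 largest clonotypes moved on merging to 50.0% for IGKV17-121 in iB-μMT and to 51.2% and 61.0% for IGKV19-93. Without clonotypes found in both mice it moved to 39.7% and 45.8% for IGKV17-121 and to 68.1% for IGKV19-93 in B6. Minimums of 5 reads, productive clonotypes, unique V hits and equal read numbers changed none of the calls. The A share among T and A clonotypes ran from 42.2% to 47.4% in iB-μMT and from 26.3% to 33.3% in B6 where clonotypes were counted once. Clonotype numbers of 44 to 54 per gene limit the differences that can be detected.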

Other observations

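Clonotypes with an A-to-C substitution in V were found in B6 for both genes, in 7 of 54 IGKV17-121 clonotypes (13%, 95% Wilson interval 6.42 to 24.4) and 7 of 45 IGKV19-93 clonotypes (15.6%, 7.75 to 28.8). In iB-μMT they were found in 0 of 47 and 0 of 44, which allows shares of up to 6.38% and 6.82%. They were small: in B6 they held 82 reads of IGKV17-121, at most 31 in a clonotype, and 38 reads of IGKV19-93, at most 15. The lowest base quality of their CDR3s was 34 to 37 in IGKV17-121 and 21 to 35 in IGKV19-93, against 38 in the T19A pairs. In IGKV17-121 they carried A17C, in 5 of 7 together with T19C, and 4 of the IGKV19-93 clonotypes carried A14C with A16C. In the other IGKV genes 71 of 1597 clonotypes (4.45%, 3.54 to 5.57) in B6 and 12 of 1727 (0.695%, 0.398 to 1.21) in iB-μMT carried such a substitution. These counts were chosen after the values were seen, and their cause was not tested.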
